A study of Homo sapiens with 14 samples.

Results

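FLI1-bound microsatellites far from gene starts were examined in TC-32, an established Ewing sarcoma cell line, labelled wild type and grown without treatment. A member was a row of the FLI1 peak list of set A replicate 1, on the 22 autosomes or X, that passed 4 conditions. It overlapped a row in each of the other 3 FLI1 lists, lay over 5 kb from every protein-coding transcript start, and had a run of at least 4 consecutive GGAA units, on either strand of hg38, within 250 bp of its summit. There were 862 members of 35210 rows in that list. Of those rows, 16804 were found in all 4 FLI1 lists and 8602 of these were distal. The other 7740 distal rows in all 4 lists had no such run and served as the comparison. Members were chosen by FLI1 presence and summit position, so their FLI1 values are a description and carry no test.

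The series holds 14 CUT&RUN libraries, in which an antibody directs a nuclease to cut and release the chromatin it is bound to. FLI1 was profiled in sets A and B with 2 replicates each, H3K27ac in set A, and H3K9me3 and H3K27me3 in set B, also with 2 replicates each, next to 4 IgG control libraries. What the set letters stand for is not stated in the sources used here, nor whether replicates came from separate cultures. Every group is the same untreated line, so any difference described is between sites or between libraries, not between conditions.

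Ewing sarcoma is driven by EWSR1::FLI1, a fusion that joins the activating part of EWSR1 to the DNA-binding ETS domain of FLI1. ETS proteins recognise a GGAA core, and normal ETS factors usually bind single sites. The fusion also binds tandem GGAA repeats, and such microsatellites are known to act as enhancers or promoters of genes that Ewing sarcoma cells depend on. H3K27ac marks active enhancers and promoters, H3K9me3 marks heterochromatin, and H3K27me3 marks chromatin held silent by Polycomb proteins.

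The following sequences show the range of the members: the member with the highest mean FLI1 percentile over the 4 lists (nearest ARG1), another of the strongest, with a longer run (TMEM114), a strongly enriched member with few units (CCDC171), the longest runs (SHROOM4, MYO10), a member with a high H3K27ac value (ZZZ3), one with a high H3K9me3 value (HMCN1), and members near the known targets CCND1 and NKX2-2. They were read from hg38 on the strand that carries GGAA, with 30 bp on each side, and the capitals mark the run of consecutive units.
ARG1 (chr6:131383680-131383791, plus strand, 13 units): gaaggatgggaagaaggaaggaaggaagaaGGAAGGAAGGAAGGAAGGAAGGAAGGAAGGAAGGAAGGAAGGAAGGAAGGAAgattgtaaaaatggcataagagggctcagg
TMEM114 (chr16:8576676-8576799, plus strand, 16 units): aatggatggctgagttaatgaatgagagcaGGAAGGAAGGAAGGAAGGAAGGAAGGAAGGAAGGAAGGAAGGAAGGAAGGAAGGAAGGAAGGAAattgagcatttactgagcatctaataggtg
CCDC171 (chr9:15882965-15883048, minus strand, 6 units): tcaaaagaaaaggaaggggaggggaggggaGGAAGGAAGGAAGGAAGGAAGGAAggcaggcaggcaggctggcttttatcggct
SHROOM4 (chrX:50618251-50618450, minus strand, 35 units): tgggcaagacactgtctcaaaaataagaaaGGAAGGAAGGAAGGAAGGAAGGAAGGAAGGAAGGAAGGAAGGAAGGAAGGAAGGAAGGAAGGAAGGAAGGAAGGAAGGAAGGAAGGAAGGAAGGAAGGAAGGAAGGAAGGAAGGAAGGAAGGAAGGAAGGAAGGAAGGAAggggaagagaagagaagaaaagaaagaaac
MYO10 (chr5:16944067-16944254, plus strand, 32 units): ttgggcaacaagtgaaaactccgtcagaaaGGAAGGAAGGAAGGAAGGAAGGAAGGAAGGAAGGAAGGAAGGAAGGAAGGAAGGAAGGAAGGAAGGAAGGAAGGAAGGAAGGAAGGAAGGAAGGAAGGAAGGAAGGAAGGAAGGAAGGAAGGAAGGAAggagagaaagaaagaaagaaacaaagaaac
ZZZ3 (chr1:77620455-77620566, plus strand, 13 units): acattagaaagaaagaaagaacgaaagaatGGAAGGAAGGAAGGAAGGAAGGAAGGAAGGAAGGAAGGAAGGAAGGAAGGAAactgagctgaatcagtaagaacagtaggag
HMCN1 (chr1:185716085-185716196, minus strand, 13 units): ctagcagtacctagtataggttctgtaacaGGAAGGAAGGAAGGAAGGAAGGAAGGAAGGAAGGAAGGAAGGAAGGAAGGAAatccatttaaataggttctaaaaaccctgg
CCND1 (chr11:69622062-69622137, plus strand, 4 units): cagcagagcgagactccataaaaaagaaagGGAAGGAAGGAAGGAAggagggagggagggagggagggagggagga
NKX2-2 (chr20:21555798-21555893, minus strand, 9 units): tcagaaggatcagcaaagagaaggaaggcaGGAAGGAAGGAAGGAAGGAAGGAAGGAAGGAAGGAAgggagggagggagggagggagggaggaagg
NKX2-2 (chr20:21576254-21576393, minus strand, 20 units): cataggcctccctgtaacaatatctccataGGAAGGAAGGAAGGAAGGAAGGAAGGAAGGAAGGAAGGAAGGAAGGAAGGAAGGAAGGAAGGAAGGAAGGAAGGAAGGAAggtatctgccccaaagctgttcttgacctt
The run near CCND1 has only 4 uninterrupted units, but 25 GGAA units stood on the same strand when 250 bp on each side of the run were included. Run length in hg38 is that of the reference genome, and the alleles of TC-32 were not measured here.

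Most members carried long runs. The unit number ranged from 4 to 35 with a median of 12 and quartiles of 9 and 14, and 671 members (77.8%) had at least 9 units. Only 118 had 4 to 6 units and 6 had 20 or more. The window around the summit held a single run in 700 members and 2 or more in 162. The runs read 5′ to 3′ on the plus strand in 440 members and on the minus strand in 422. There were 859 distinct runs, since 6 members shared a run with another, and 30 members lay within 10 kb of another.

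Longer runs in the genome were more often bound. The reference holds 15035 distal runs of 4 or more units, of which 1076 lay within 250 bp of a summit of a four-list row (7.16% of all such runs), and 12284 (81.7%) lay near no FLI1 summit in any list. Such runs are called bound in all 4 lists, although only the summit of set A replicate 1 had to be near the run. With a summit near the run required in each list, 703 runs qualified. Of the 6690 runs with 4 units, 2.11% were bound in all 4 lists (95% Wilson interval 1.79 to 2.48%). The share was 5.35% at 6 units, 9.72% at 8, 15.5% at 10, 19.0% at 12, 24.4% at 14 and 28.9% at 16 units. Among the 94 runs with 18 to 39 units it was 38.3% (29.1 to 48.4%). The intervals cover counting error only. Each run was counted on its own, also where a longer run lay near the same summit. With 4 units, 141 runs were bound in all 4 lists, but only 39 members had 4 units in their longest run. The share did not rise at every step: 11 units had 14.4% (11.5 to 17.9%), inside the interval of 10 units (12.6 to 19.1%).

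The share climbed in each list taken alone too. From 4 units to 17 units the share of runs near a summit went from 3.51% to 46.6% in set A replicate 1, from 3.87% to 55.3% in set A replicate 2, from 5.19% to 40.8% in set B replicate 1 and from 3.89% to 36.9% in set B replicate 2. In the last class, 18 to 39 units, the shares were 47.9%, 48.9%, 45.7% and 34.0% in the same order, so 2 of the 4 lists were lower there than at 17 units. Long runs made up 20.3% of the distal genomic runs (at least 10 units) and 70.9% of the members (611), which are counted by their longest run. Of the 1076 runs bound in all 4 lists, 644 had at least 10 units. Even so, 33.0% of the 103 runs with 17 units and 40.4% of the 94 with 18 to 39 units were near no summit in any list. Whether reads align equally well to runs of each length was not tested.

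**Figure D1:**
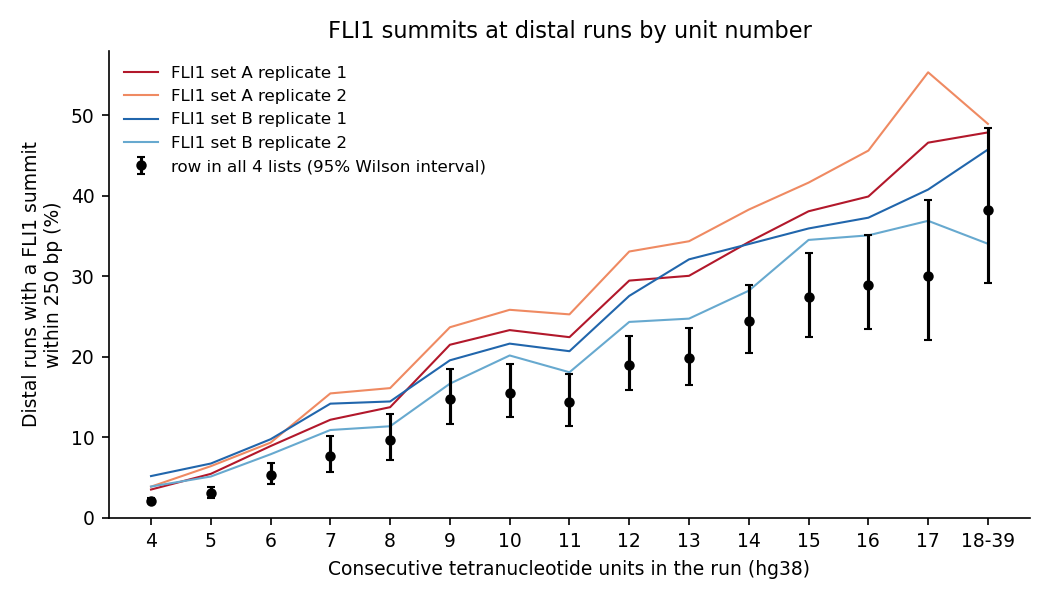
Share of distal hg38 runs (vertical axis, %) with a FLI1 summit within 250 bp, by the number of consecutive units (horizontal axis). Coloured lines are single FLI1 libraries, each by its own summits. Black points, with 95% Wilson intervals, are runs near a set A replicate 1 summit whose row overlapped a row in each other list. The summits of the other lists need not be near the run, so a black point can lie above a coloured line. The black points climb from 2.11% at 4 units to 38.3% at 18 to 39 units.

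Short bound runs had more units around them than short unbound ones. Short runs near a longer run were included. Among runs of 4 to 6 units, those bound in all 4 lists had a median of 17 further GGAA units on the same strand within 250 bp, against 11 for those in no list. At least 6 further units were present in 88.9% of the 288 bound and 76.2% of the 9564 unbound short runs. For runs of 13 to 15 units the medians were 7 and 7, and for 16 or more 5 and 6. The A+T content of the flanks was alike, at 56.0% and 57.2% for short bound and unbound runs and 56.4% and 56.4% for runs of 16 or more.

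The summits of the rows stood beside the runs, not on them. Only 1, 1, 4 and 5 of the 862 summits fell inside the run in set A replicates 1 and 2 and set B replicates 1 and 2, in that order. The median distance from summit to run was 201 bp, 202 bp, 195 bp and 197.5 bp in the same order. In set A replicate 1, whose summits the rule used, 798 members (92.6%) had their summit 150 to 250 bp away. The rule limits this distance to 250 bp, and 381 rows had their nearest run over 200 and up to 250 bp away against 161 over 250 and up to 300 bp, so the limit cuts through the far side of the distribution. In the comparison, 307 rows had a run over 250 and up to 500 bp from the summit.

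The summits favoured one side. Read on the strand that carries GGAA, the summit was on the 3′ side of the run in 58.9% and 61.4% of the members for the set A lists, and for set B in 57.8% and 58.0%. The run lay whole inside the called row in 720 members (83.5%) and wholly outside it in 131. In the other 3 lists the overlapping row could have its highest point elsewhere: its summit was over 250 bp from the run in 112, 169 and 187 members in set A replicate 2 and set B replicates 1 and 2. How reads within the repeats were aligned is not given in the sources used here, and its part in the position of the summits was not tested.

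**Figure D2:**
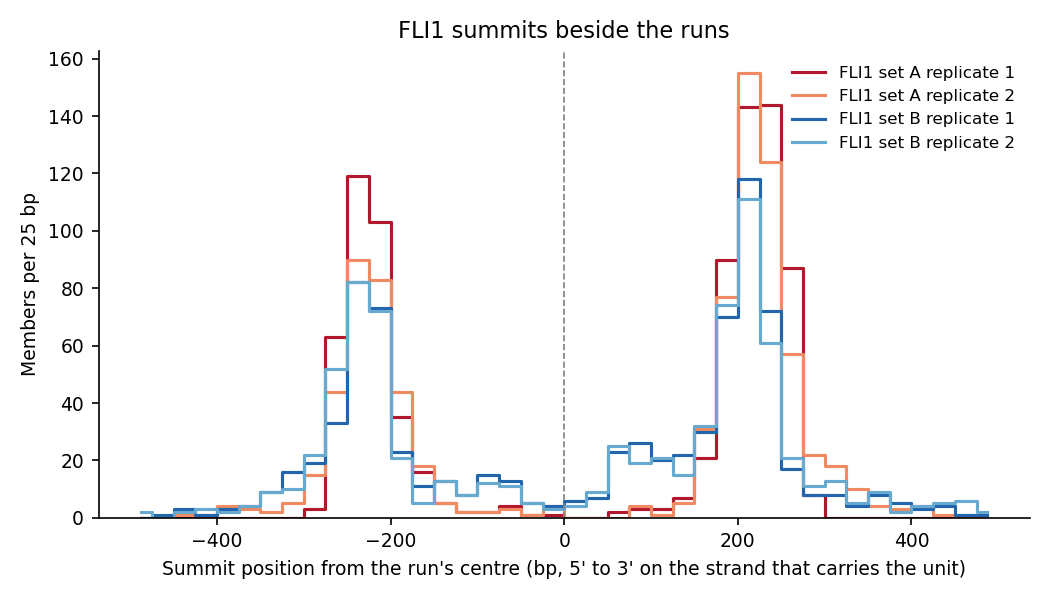
Number of members per 25 bp (vertical axis) by the position of the FLI1 summit relative to the run's centre (horizontal axis, bp, 5′ to 3′ on the strand that carries the unit), for the 4 FLI1 libraries. Each library has a peak of summits on either side, about 200 bp away, with the higher peak on the 3′ side and few summits at the run.

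The members stood high in every FLI1 list. Values are the authors' deposited fold of each row over its control, which depends on each library's depth, so they are read within a list. The median fold of the members was 27.8, 31.6, 16.7 and 14.5 in set A replicates 1 and 2 and set B replicates 1 and 2, against 9.03, 9.99, 10.2 and 9.02 for the comparison rows. As percentiles of their own list, the members' medians were 94.98, 96.2, 86.3 and 84.1, and those of the comparison rows were 68.0, 74.9, 66.0 and 59.0. The highest 10% of each list by fold held 65.1%, 72.4%, 43.4% and 38.7% of the members and 14.5%, 20.5%, 12.1% and 9.22% of the comparison rows. The percentiles of the members were lower in set B than in set A.

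Member rows were also wide. Median widths were 2537.5 bp and 2743.5 bp for set A, then 1055 bp and 1047 bp for set B, against 856, 920, 595.5 and 566 bp for the comparison rows. Across the members, fold and width of a row went together in each library (Spearman's rho 0.83, 0.84, 0.74 and 0.73, n = 862). The members kept a similar order of fold within a set (rho 0.93 in A and 0.80 in B) and less so between sets (0.70 to 0.71). These and the later correlations are across sites of the same libraries, which share depth and control, and are given without a p-value.

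Among bound runs, unit number was only loosely related to fold. Spearman's rho of unit number and fold over the 862 members was 0.17, 0.20, 0.15 and 0.14 in the 4 libraries. Among the 611 members with at least 10 units it lay between -0.01 and 0.02. With all units on the same strand within 250 bp in place of the longest run, it lay between -0.04 and 0.03. The difference sat at the short end: the median fold in set A replicate 1 was 15.1 for 4 to 5 units (78 members), 23.8 for 6 to 7, 23.5 for 8 to 9 and 37.4 for 10 to 11 units. It was 31.6 for 12 to 13, 26.5 for 14 to 15, 33.9 for 16 to 17 and 38.4 for 18 to 35 units (35 members). In set B replicate 2 the corresponding ends were 10.5 and 19.9.

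**Figure D3:**
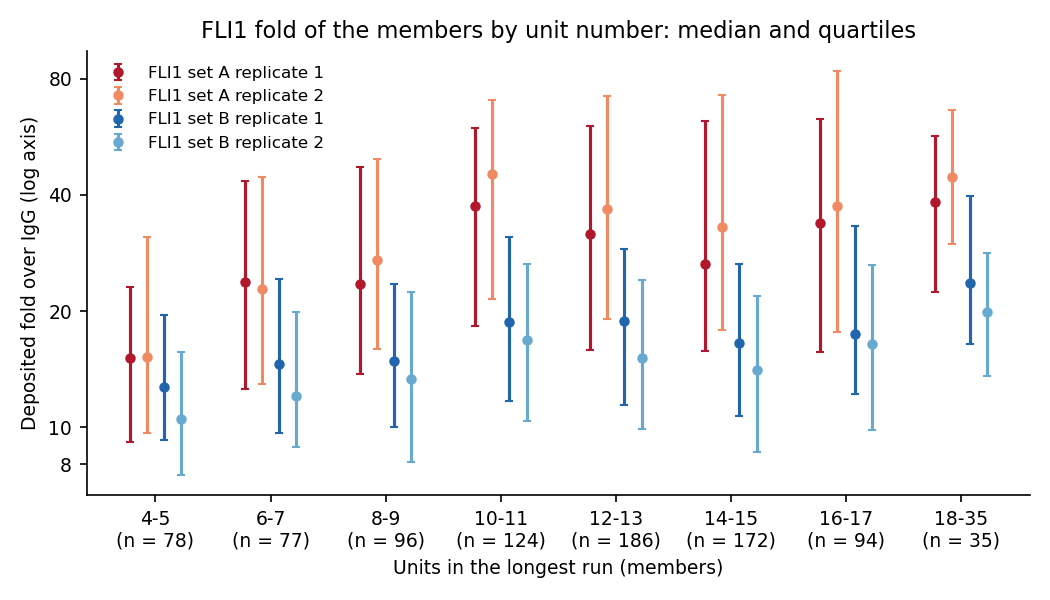
Deposited FLI1 fold over IgG (log axis) of the members by unit number of the longest run (horizontal axis, with the number of members); points are medians and bars run from the lower to the upper quartile, 1 colour per library. In set A replicate 1 the median goes from 15.1 at 4 to 5 units to 37.4 at 10 to 11 units, and the quartile ranges of all classes overlap.

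Members with the highest mean percentile showed how far fold and length separate. The member nearest ARG1, which encodes the arginase of the urea cycle, had folds of 231 and 402 (set A) and of 96.7 and 92.8 (set B), with 13 units, in an intron of a long non-coding RNA gene 80.9 kb from the ARG1 start. Next came a member with 10 units in an intron of NTM, a neural cell adhesion gene, with folds of 301, 346, 114 and 67.04. The intron of TMEM114 held a member with 16 units and folds of 251.2, 294, 98.0 and 59.0. The lowest percentile among these 3 members in any list was 99.8.

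A run of 6 units was among the strongest too. In an intron of CCDC171, folds were 221, 251.5, 66.8 and 47.0. The member nearest TAS2R16, a bitter taste receptor gene, had 16 units and folds of 165, 272, 108 and 54.1. The rest of the 10 highest lay nearest LRATD2 (14 units), SHTN1 (16), LINGO1 (16), AUTS2 (17) and PDCD6IP (15). SHTN1 acts in axon formation, LINGO1 in the Nogo receptor complex and AUTS2 in brain development.

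The longest run did not have the highest fold. With 35 units, the run in an intron of SHROOM4, an actin-organising gene, had folds of 9.85, 12, 7.49 and 7.12, a mean percentile of 58.9. The 28 units in an intron of NUP210L had folds of 9.63, 9.05, 12.6 and 8.12. In contrast, 32 units near MYO10, a myosin of filopodia, had folds of 46.9, 49.5, 56.3 and 25.7. The 19 units within MAGI1, a scaffold gene of cell junctions, had 100.5, 123, 55.1 and 48.3, and a run of 19 units nearest LMLN had 221, 216, 48.1 and 38.3. The set B summits of the LMLN member were 848 and 833 bp from the run. Runs of 20 units nearest REEP3 and in HECTD4 had mean percentiles of 96.0 and 89.2. Among these named members, long runs came with both moderate and high folds. Members with 18 to 35 units had the highest median fold of the unit classes in set A replicate 1 (38.4) and set B (23.7 and 19.9). In set A replicate 2 theirs was 44.6, against 45.5 for 10 to 11 units.

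At the limit of unit number the rows on either side had similar values. The 39 members with exactly 4 units had median folds of 10.7, 11.1, 11.4 and 9.40, and the 55 distal four-list rows whose longest run had 3 units had 11.1, 10.2, 11.4 and 9.16. Members at 250 bp from their run (nearest NTM and HS6ST1) had folds of 36.4 and 27.4 in set A replicate 1, and rows at 251 bp (nearest LAMP3 and SOX9) had 37.6 and 22.9. Rows 5.04 kb (IPO5) and 4.97 kb (RARRES2) from a coding start had 196 and 18.01. A further 115 four-list rows with a run lay at or within 5 kb of a coding start, outside the rule, with median folds of 30.6, 32.9, 18.4 and 16.3. Among them was the row at the start of NR0B1, the classic microsatellite target of the fusion, with 7 units and folds of 36.8, 48.0, 21.9 and 12.6.

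Members lay far from coding genes' starts. The median distance to the nearest protein-coding start was 71.0 kb, against 45.5 kb for the comparison rows, and 59.3% of the members were over 50 kb away against 47.7% of the comparison rows. By position of the run, 404 members (46.9%) were between genes, 265 (30.7%) in introns of protein-coding genes and 182 (21.1%) in introns of long non-coding RNA genes. Exons held 8 (protein-coding) and 3 (long non-coding). The rule excluded coding starts only, and 46 members lay within 1 kb of a long non-coding RNA start.

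The members had 738 distinct nearest genes. No gene was nearest to more than 4, and CITED2, FLRT2, HMCN1, PRKCB and TBL1XR1 had 4 each. The 4 nearest PRKCB, a protein kinase C gene that the fusion is known to activate, had 13, 8, 12 and 4 units at 18.9, 44.3, 62.7 and 130.5 kb from the start. Their folds in set A replicate 1 were 52.8, 9.47, 111 and 17.03, so strong and weak members stood along the same gene. Around HMCN1, an extracellular matrix gene, the 4 members had 10, 11, 13 and 15 units and folds of 15.3, 58.7, 97.2 and 53.9.

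Known targets of the fusion often had a member nearby. Of a list of 38 genes reported as targets or as lying near such microsatellites, 22 (57.9%) had a member within 500 kb of a start, while 22.5% of the 19618 protein-coding genes did. Within 100 kb it was 13 (34.2%) against 4.75%. The list was drawn in part from reports of FLI1 binding at such repeats in Ewing sarcoma cells and is not independent of what was counted, so no test is given. The 22 genes shared 21 members, with 4 to 18 units (median 12) and median folds of 42.0, 70.3, 21.4 and 17.9. H3K27ac rows of both libraries overlapped 10 of the 21 members, where 13.9% of all members and 9.08% of all distal rows were overlapped. H3K9me3 rows of both overlapped 1 of the 21, where the shares were 5.45% and 1.29%.

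Cell cycle and transcription factor genes were among them. The member 14.4 kb from CCND1, which encodes cyclin D1, had 4 units and folds of 127, 141, 53.1 and 32.6. Near NKX2-2, a homeobox gene needed for transformation by the fusion, a member with 9 units at 39.3 kb had folds of 64.0, 88.9, 56.9 and 25.7, and a second with 20 units at 55.1 kb had 39.2, 77.3, 29.9 and 28.3. The set B summits of the member with 9 units were 588 and 586 bp from its run. The CCND1 member and the nearer NKX2-2 member overlapped H3K27ac in both libraries.

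Other members near listed genes covered a wide range. The member within SOX6 had 16 units and folds of 42.0, 81.1, 28.0 and 18.9. In JAK1, a cytokine receptor kinase gene, 11 units came with folds of 57.8, 77.0, 29.1 and 36.9, and H3K27ac in both libraries. The set B summits of the JAK1 member were 3882 and 3819 bp from the run. In IL1RAP, a co-receptor gene of interleukin-1, 13 units had folds of 57.2, 70.3, 9.66 and 19.4. These stood at percentiles of 98.6, 98.9, 61.9 and 92.1 of their own lists. The caveolin genes differed: the member near CAV2 had 5 units and folds of 139, 131, 36.1 and 25.8, and that in CAV1 had 6 units and folds of 8.80, 12.3, 9.68 and 10.2. Both caveolin members overlapped H3K27ac in both libraries. The CAV2 member also overlapped H3K9me3 in both libraries, with folds of 6.44 and 6.41 for that mark.

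A minority of the members overlapped a histone mark, and 588 overlapped none in any of the 6 mark libraries. Comparison rows without any mark were not counted, so 588 is not read as particular to the members. H3K27ac rows overlapped 135 members (15.7%) in replicate 1 and 211 (24.5%) in replicate 2, against 12.1% and 18.02% of the comparison rows. The difference was 4.99 ± 2.08 percentage points (mean ± SD, n = 2 libraries), with the same direction in both. The exact two-sided sign-flip permutation test gave p = 0.5, the smallest that 2 libraries allow, so no difference in marks can pass a threshold here. Both libraries together called 120 members (13.9%), where 9.08% of all 8602 distal rows were called.

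The H3K27ac difference depended on the region examined. Within 500 bp of the FLI1 summit, 6.61% and 12.2% of the members had H3K27ac, against 10.99% and 17.2% of the comparison rows (mean difference -4.73 points). With the summit itself inside an H3K27ac row the mean difference was -4.27 points. With a margin of 1 kb around the row it was 2.13 points. With rows chosen from set B replicate 1, which changes the rows, their summits and the comparison set, the whole-row difference was 0.95 points. Member rows were wider than comparison rows, and the part of width in these values was not tested.

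H3K9me3 overlapped more members than comparison rows. Its rows overlapped 85 members (9.86%) in replicate 1 and 53 (6.15%) in replicate 2, against 1.71% and 1.05%, a difference of 6.63 ± 2.16 points (mean ± SD, n = 2 libraries, exact two-sided sign-flip permutation p = 0.5). Both libraries called 47 members (5.45%), where 1.29% of all distal rows were called. Close to the summit the mark was rare: within 500 bp it was found at 2.20% and 1.16% of the members and at 1.36% and 0.685% of the comparison rows. With a margin of 1 kb around the row the mean difference was 10.6 points, and with rows from set B replicate 1 the whole-row difference was 1.54 points.

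H3K27me3 was nearly absent from the members. It overlapped 4 members (0.464%) in replicate 1 and 3 (0.348%) in replicate 2, against 0.245% and 0.155% of the comparison rows (difference 0.206 ± 0.018 points, mean ± SD, n = 2 libraries, exact two-sided sign-flip permutation p = 0.5). Both libraries called 3 members (0.348%), where 0.14% of all distal rows were called. These 3 lay nearest MYCN, GATA3 and TPSAB1. With a margin of 1 kb around the row the mean difference was -0.21 points.

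**Figure D4:**
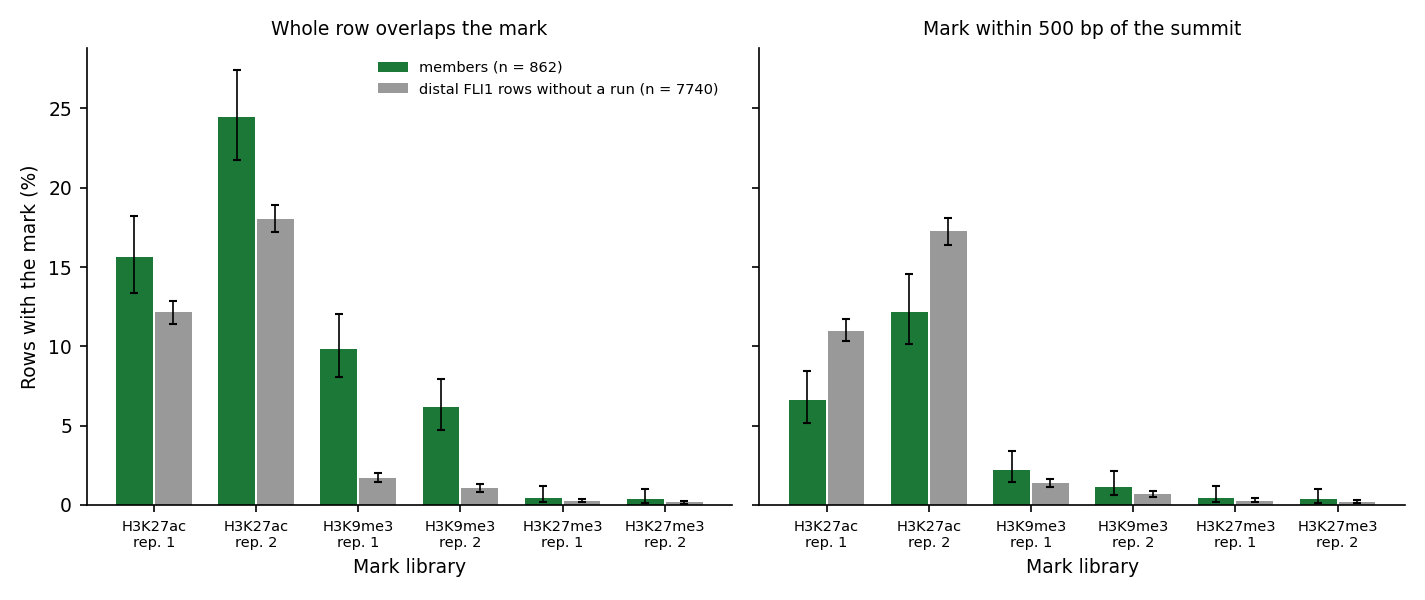
Share of rows (%) with each mark in each of the 6 mark libraries, for members (green, n = 862) and distal FLI1 rows without a run (grey, n = 7740), over the whole row (left) and within 500 bp of the FLI1 summit (right); bars carry 95% Wilson intervals of counting error. H3K27ac is higher in members over the whole row (15.7% and 24.5%) and lower near the summit (6.61% and 12.2%).

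H3K27ac was concentrated in the members with the most FLI1. With the members in 4 equal groups by mean FLI1 percentile, from lowest to highest, H3K27ac replicate 1 overlapped 1.86%, 2.31%, 11.6% and 46.8%, and replicate 2 overlapped 6.05%, 6.48%, 22.8% and 62.5%. Row widths rose alongside, with medians of 931, 1918, 3441 and 5862.5 bp. Comparison rows in the same ranges of percentile had 11.5%, 12.5%, 14.5% and 26.2% in replicate 1, and the highest range held 145 such rows with a median width of 3575 bp. So the members' share was below that of the comparison rows in the 2 lower groups and above it in the highest.

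The pattern was also present in a window of fixed size. Within 500 bp of the summit, replicate 2 had H3K27ac at 4.19%, 2.78%, 9.77% and 31.9% of the members from the lowest to the highest group, against 17.7%, 16.3%, 15.8% and 22.1% of the comparison rows. In replicate 1 the members had 2.33%, 1.85%, 4.65% and 17.6%, against 11.7%, 9.76%, 9.16% and 8.28%. Median unit number was 11, 12, 12 and 13 over the 4 groups. H3K9me3 replicate 1 overlapped 4.65%, 4.17%, 8.37% and 22.2% of whole rows, but within 500 bp it had 4.65%, 1.85%, 0.465% and 1.85%, with no rise. The comparison rows had the same pattern, with 1.16%, 1.57%, 4.01% and 14.5% over whole rows and 1.42%, 1.05%, 1.34% and 2.07% within 500 bp.

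**Figure D5:**
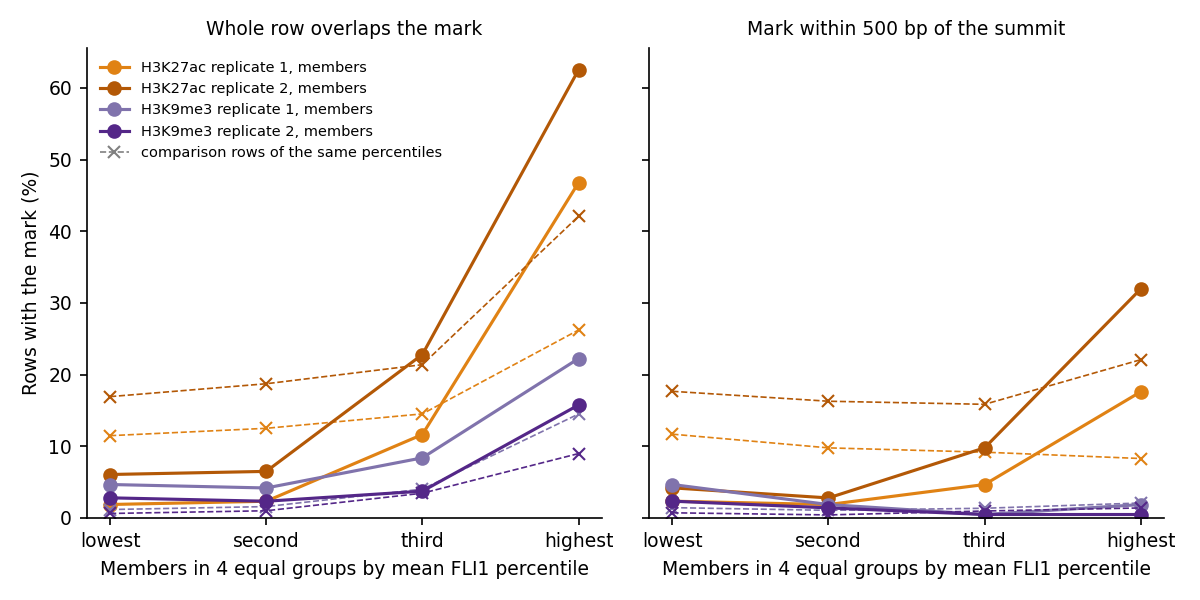
Share of rows (%) with H3K27ac or H3K9me3 for the members in 4 equal groups by mean FLI1 percentile, over the whole row (left) and within 500 bp of the summit (right); solid lines are members, dashed lines comparison rows in the same percentile range, 1 colour per mark library. H3K27ac reaches 46.8% and 62.5% of the highest group over whole rows, while H3K9me3 shows no rise near the summit.

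Unbound runs of equal length had little H3K27ac. Within 500 bp of the run's centre, H3K27ac replicate 2 was found at 13.3% of the bound and 0.11% of the unbound runs of 10 to 12 units, at 14.0% and 1.33% for 13 to 15 units, and at 19.5% and 1.20% for 16 or more units. H3K9me3 replicate 1 was found at 3.33% and 3.84%, 2.95% and 4.48%, and 0% of 133 and 5.99% of 167 in the same classes. In runs of 7 to 9 units H3K9me3 replicate 1 was found at 2.78% of the bound and 2.12% of the unbound, and in runs of 4 to 6 units at 2.78% and 2.90%. H3K27ac replicate 2 was found at 9.03% of the bound and 0.481% of the unbound runs of 7 to 9 units. At 4 to 6 units it was found at 13.5% and 0.356%. So the H3K27ac share was higher at bound runs in every class, in replicate 1 as well. The order for H3K9me3 was not the same in every class in either replicate. This is given without a test since the rule uses FLI1 presence. H3K27me3 replicate 1 was found at 1.04% and 3.47% of the bound and unbound runs of 4 to 6 units. At 10 to 12 units it was found at 0.833% and 1.76%. The H3K27me3 share was lower at bound runs in every class in both replicates, with at most 3 bound runs called in a class.

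Members sorted by mark had similar unit numbers and different widths, folds and positions. A mark was counted here only where both of its libraries called it, so a mark alone allows the other in a single library. Comparison rows were not sorted in this way, so these counts and shares describe the members only. H3K27ac alone marked 101 members, with a median of 12 units, a width of 6446 bp and folds of 73.5, 87.4, 34.9 and 29.2. H3K9me3 alone marked 28, with a median of 12.5 units, a width of 3689.5 bp and folds of 43.2, 72.1, 19.6 and 18.6. Both marks overlapped 19, the widest at 8617 bp. The 588 members with no mark in any library had a median of 12 units, a width of 1864.5 bp and folds of 20.1, 23.2, 13.9 and 11.95. Of the members with H3K27ac alone, 44 (43.6%) lay in a protein-coding gene, against 2 (7.14%) of those with H3K9me3 alone and 31.7% of all members.

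Among the 10 members with the highest mean percentile over both H3K27ac lists, the run of 13 units in ZZZ3, a gene of a histone acetyltransferase complex, had H3K27ac folds of 9.13 and 8.70 and FLI1 folds of 104, 85.2, 45.95 and 22.96. The run of 14 units in DAPK2, a death-associated kinase gene, had H3K27ac folds of 8.33 and 6.92 and FLI1 folds of 74.4, 60.7, 32.4 and 19.3. A member of 12 units nearest ETV1, itself an ETS factor gene, had H3K27ac folds of 6.38 and 6.74 and FLI1 folds of 102, 289, 51.6 and 37.2. Further members of this kind lay nearest VRK1, CLVS2, LRFN2, CAV2, DCT, MAGI1 and LRATD2, with 5 to 19 units. The member nearest LRFN2 had a mean FLI1 percentile of 94.0, and the other 9 lay between 96.5 and 99.8.

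By mean percentile over both H3K9me3 lists, the highest member was nearest HMCN1, with folds of 7.67 and 7.56 for the mark, 13 units and FLI1 folds of 97.2, 128, 33.2 and 73.3. That row spanned 13996 bp and also overlapped H3K27ac in both libraries. Nearest UBE2F, a NEDD8-conjugating enzyme gene, 8 units came with H3K9me3 folds of 7.63 and 6.90 and no H3K27ac, and FLI1 folds of 29.4, 81.8, 6.81 and 10.9. The value of 81.8 came from a row of set A replicate 2 whose summit was 6047 bp from the run. SEC16B, SPRED2 (an inhibitor of RAS and ERK signalling) and CCDC171 were nearest to the others of the 5 highest, and all 3 overlapped both marks.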

How the data were processed

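CUT&RUN libraries were processed by the authors with cutadapt 4.4, Bowtie2, Picard 2.17.11 and MACS2 2.1.1 against GRCh38, per the submitters' processing notes. Settings and roles are not given in the sources used here. The 10 deposited lists hold 1 library each, replicates not pooled. For each row the authors deposited a fold, a ratio of signal over control (an IgG library, by the row names), and −log10 p and −log10 q (at least 2.00). The lists give no read totals, so depth is unknown. IgG libraries, spike-in counts and reads were not analysed here.

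Runs were searched in hg38, and gene starts came from GENCODE release 44. An overlap was at least 1 shared base. Where several rows overlapped, the one with the highest −log10 p was used. Percentiles are of fold within a list. Marks were compared by library with exact sign-flip permutation tests. Members and the gene list were chosen with earlier results of these data known. Genes were named by rule: the 10 highest mean percentiles, the 8 longest runs, the highest mark values, the member nearest each listed gene, and rows at the rule's limits. One member named by this rule is not reported here. The members around PRKCB and HMCN1 were chosen after their values were seen. Alternatives changed run length, windows, distance, overlap, significance, anchor list and libraries. Whether replicates are separate cultures is not stated, so the spread is between these samples only. Python 3.11.15, numpy 2.4.6, pandas 2.3.3, scipy 1.17.1, pysam 0.24.0 and matplotlib 3.10.9 were used.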

Additional observations from a re-analysis of the deposited data

How the results depend on the processing

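The reported values were 862 members, a mean rho of unit number and fold of 0.167, a percentile difference of 23.4 points and 7.16% of runs bound. Requiring the run within 100 bp of the summit left 24 members, with a rho of 0.25, a percentile difference of 9.33 points, 0.186% of runs bound and an H3K27ac difference of -9.36 points. A reciprocal overlap of 50% left 172 members, a rho of 0.25, a percentile difference of 17.8 points and 1.45% of runs bound. With at least 6 units rho was 0.094 and 15.2% of runs were bound, and with at least 3 units 0.23 and 4.05%. Counting all units within 250 bp gave a rho of 0.041. A −log10 q of at least 5 gave a percentile difference of 19.8 points. A summit window of 500 bp bound 10.9% of runs, and set B replicate 1 as the anchor 8.43%, with 699 of the 859 runs kept (81.4%). The H3K27ac difference was -4.27 points with the summit inside the mark and -4.73 within 500 bp of it, the latter added after seeing the data. With a margin of 1 kb the differences were -0.21 (H3K27me3), 2.13 (H3K27ac) and 10.6 points (H3K9me3). Leaving out 1 FLI1 library in turn gave a rho of 0.15 to 0.20 and 7.24% to 8.18% of runs bound. The cause of these shifts was not tested. The H3K9me3 difference, as a mean over libraries, kept its direction in all 21 alternatives run. With the run within 100 bp of the summit it was 2.132 ± 5.225 points (mean ± SD, n = 2 libraries), so the libraries differed in direction there. No paired analysis was possible because the comparisons are between sites within a library, so replicate numbers pair nothing. Without read totals, a run in no list cannot be told from one below detection.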

Other observations

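Distal runs were not always bound in the same libraries. With a summit within 250 bp required in each list on its own, 703 runs had one in all 4 lists, of which 445 had at least 10 units. A further 316 runs had a summit in both libraries of set A and in neither of set B, of which 178 had at least 10 units. The opposite pattern, both libraries of set B and neither of set A, was found at 277 runs, of which 109 had at least 10 units. Single libraries alone had 147 and 278 runs (set A replicates 1 and 2) or 208 and 97 (set B replicates 1 and 2). Set was not tested as a factor, since its meaning is not stated in the sources used here.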
